A study of Mus musculus with 18 samples.

Results

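Macrophages of the mouse peritoneal cavity sorted for high surface Tim-4 were compared between mice with a tumor in that cavity and mice without one. The comparison holds 6 of the 18 RNA sequencing libraries of the series, chosen by their labels. In 3 isotype tumor libraries the mice had been challenged intraperitoneally with MC38-LG cells, labelled after the mouse colon carcinoma line MC38, were treated with an isotype control antibody, and were harvested on day 10. In 3 no-tumor libraries the mice received neither tumor cells nor, by their treatment label, any antibody, and were harvested on the same day. The labels state no day for the isotype antibody, no strain, sex or age, and no collection hour. The tumor and the isotype antibody therefore cannot be told apart in this comparison. The other 12 libraries are 3 of Tim-4high macrophages from tumor-bearing mice given anti-Tim-4 on day 7, and 9 of Tim-4low macrophages from the same 3 conditions. The labels speak of triplicates and do not say whether each library is a separate mouse, so the p-values cover the variation among 3 libraries a group, and part of it can be technical.

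Tim-4, encoded by Timd4, is a receptor for phosphatidylserine, the lipid that dying cells expose, and tissue-resident macrophages use it to bind such cells. In the unchallenged peritoneal cavity the large macrophages hold Tim-4 and are maintained under the transcription factor Gata6, while smaller ones derive from blood monocytes and hold more MHC class II. Macrophages in tumors are known for programs of low oxygen, glycolysis, arginine breakdown, matrix and vessel remodelling, and for ligands that restrain T cells, and the genes below are ordered by these programs.

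Library totals lay between 24530070 and 29832626 estimated counts in the 6 libraries. Levels are given as counts per 1000000 counts of the library (CPM) with scaled library sizes, which are not corrected for gene length, so they are compared between samples and not between genes. Differences are log2 fold changes of isotype tumor over no tumor, with their standard errors (SE), and a gene is called when its adjusted p lies under 0.05. The first principal component of the 6 libraries held 70.3% of the variance and separated the groups, with scores of -63.5, -68.7 and -71.6 in the isotype tumor libraries and 67.1, 58.0 and 78.7 in the no-tumor libraries. For the genes named next, 3 of the 6 libraries stood apart within their groups by their levels, and other libraries did so for other genes below. RNA of T cells, NK cells, neutrophils and fibroblasts was highest in isotype tumor library 3, RNA of B cells was highest in no-tumor library 1, and genes induced by interferon-gamma were high in no-tumor library 2 and low in the other no-tumor libraries. These are sorted cells sequenced in bulk, so a change in the number of cells of one kind and a change in RNA per cell cannot be told apart.

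The sort was checked on Timd4 itself (ENSMUSG00000055546, chr11:46810800-46844332 on GRCm38). Timd4 had 319.5, 294 and 280.4 CPM in the isotype tumor libraries, against 886, 680.3 and 622 CPM in the no-tumor libraries. The groups did not overlap, but the difference of -1.29 ± 0.79 was not called at an adjusted p of 0.18 (edgeR's quasi-likelihood test). In a fit of the 6 libraries alone it was called, at -1.31 with an adjusted p of 0.000556. The Tim-4low libraries had 14.5, 11 and 75.4 CPM with the tumor, against 109, 9.52 and 9.13 CPM without it. Isotype tumor library 3 and no-tumor library 1 of Tim-4low cells thus stood far above the others of their groups. The purity of the sort was not tested. Among macrophage markers, Adgre1, which encodes F4/80, averaged 3742 ± 196 CPM in isotype tumor and 1950.2 ± 255 CPM in no-tumor libraries (SD, n = 3 each), and Cd68, a lysosomal glycoprotein, averaged 964 ± 56.9 against 359 ± 19.7 CPM. Not all such markers rose. Of 9, 4 were called higher (44.4%, beside 27.3% of all tested genes) and 3 lower (33.3%, beside 24.1%), with a median of 0.08. Lyz2 and Csf1r were among the lower ones. The 9 markers summed to 23096, 21950 and 22630 CPM with the tumor, against 42940, 37340 and 46308 CPM without it.

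The tumor comparison called 8548 of 16609 tested genes, 51.5% of them. Of these, 4539 (27.3%) were higher and 4009 (24.1%) were lower with the tumor, and 1600 of the higher and 1488 of the lower ones passed a 2-fold change. In 9554 tested genes, 57.5%, the groups did not overlap. The median difference over all tested genes was -0.007, and with library totals in place of scaled library sizes it was -0.154, which turned the split of calls to 3467 higher and 5452 lower. Against a background of this size a called member is no rarity, so the counts of each gene group below are read beside these shares, and the size of the change and the values of each library carry the description.

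Among the genes with the largest increases was Chil3 (ENSMUSG00000040809, chr3:106147554-106167564), which encodes the chitinase-like protein Ym1, a product of alternatively activated and tumor macrophages in mice. Chil3 had 7349.8, 7452 and 7063 CPM in the isotype tumor libraries, against 18.3, 0.632 and 9.32 CPM in the no-tumor libraries. Every tumor library was high and the no-tumor libraries were low but unequal, and the fitted difference was 9.59 ± 1.18, or 10.50 without no-tumor library 1. Spp1, the gene of the secreted matrix protein osteopontin, had 674, 835 and 674 CPM with the tumor, against 3.51, 1.22 and 1.36 CPM without it, a difference of 8.48 ± 0.70. Lepr, the leptin receptor, had 122, 122 and 151 CPM with the tumor, against 0.374, 0.118 and 0.151 CPM without it, a difference of 9.22 ± 0.91. For both genes the 3 tumor libraries lay close together, and the no-tumor libraries held at most a few CPM, with no-tumor library 1 the highest of them. Without that library the differences were 9.12 for Spp1 and 9.87 for Lepr. Lhfpl2, a gene of a membrane protein family, and Angptl2, an angiopoietin-like secreted protein, rose by 6.73 ± 0.37 and 6.40 ± 0.36.

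**Figure D1:**
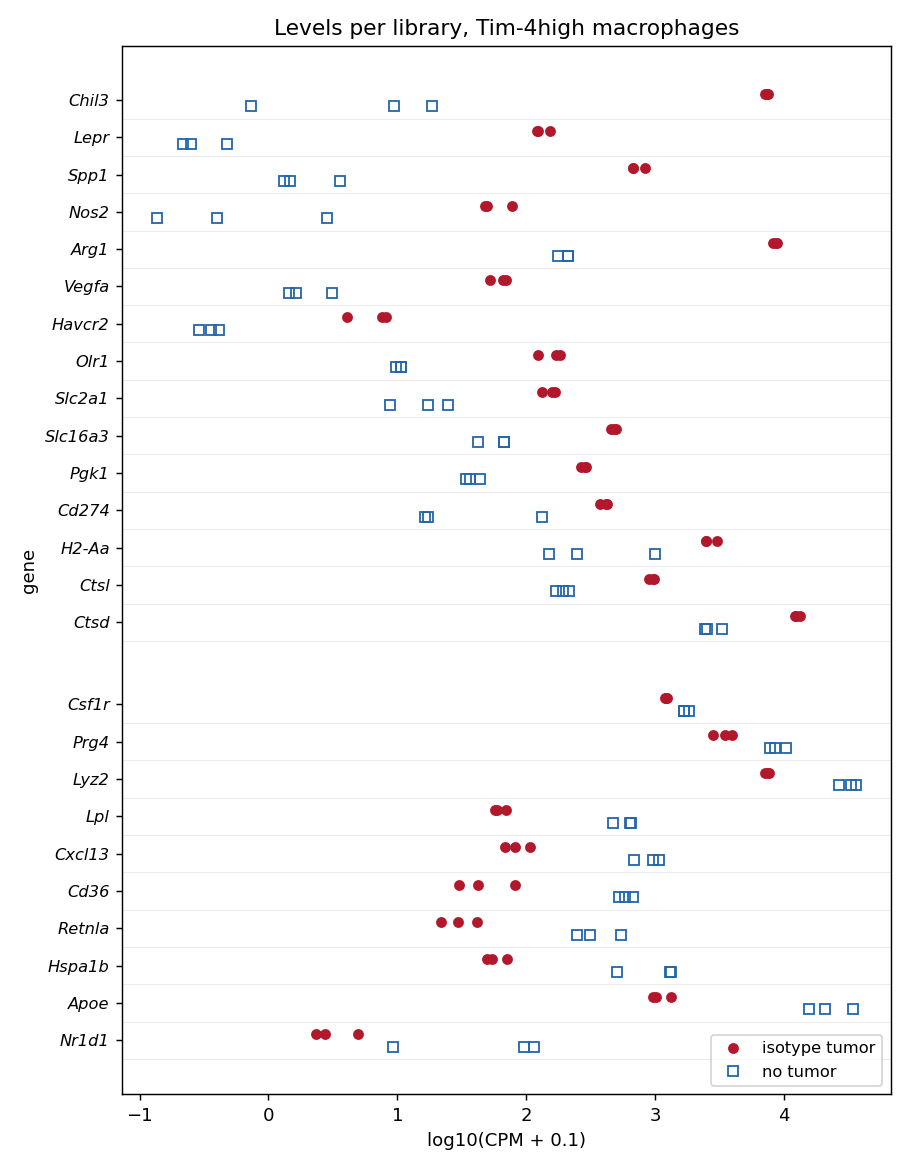
Levels of 25 genes in each library, as log10 of CPM plus 0.1 on the horizontal axis, with a row per gene. In each row the 3 isotype tumor libraries (filled circles) sit above the 3 no-tumor libraries (open squares). The upper block holds genes that rose with the tumor, from Chil3 and Arg1 to Ctsd, and the lower block genes that fell, Apoe and Nr1d1 among them.

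Other genes of this class had almost no reads without a tumor. Ccl8, a chemokine for monocytes, had 33.0, 70.6 and 18.8 CPM with the tumor, against 0.0747, 0.0395 and 0.0377 CPM without it. Ffar2, a receptor for short-chain fatty acids, had 16.5, 12.2 and 25.1 CPM with the tumor, against 0.187, 0 and 0 CPM without it. At so few no-tumor reads the fitted fold depends on the small count that the fit adds, so only the levels are given. Pdpn, the gene of podoplanin, a mucin-type membrane protein, averaged 10.3 ± 5.77 CPM against 0.0632 ± 0.0206 CPM, and Vdr, the vitamin D receptor, averaged 14.6 ± 3.34 CPM against 0.241 ± 0.168 CPM. S100a9, Gzmb, Cxcr2 and Ccl22 belong here too by size, but their levels followed isotype tumor library 3, and they are described with the markers of other cells.

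Genes of varied function were among the largest decreases. Cd209f, a C-type lectin, had 0.0384, 0.0362 and 0.193 CPM with the tumor, against 5.94, 18.2 and 39.1 CPM without it. St8sia6, a sialyltransferase, had 2.42, 1.74 and 1.96 CPM with the tumor, against 186, 121 and 213 CPM without it, a difference of -6.41 ± 0.24. Hal, the histidine-degrading enzyme, had 5.18, 6.67 and 4.27 CPM with the tumor, against 175, 281 and 395 CPM without it, a difference of -5.72 ± 0.41. In each of these genes all 3 no-tumor libraries lay far above every tumor library. Abca6, a lipid transporter of the ABCA family, differed by -6.76 ± 0.40, and Lama3, a laminin chain, by -5.90 ± 0.25. Cxcl12, a chemokine that holds leukocytes in tissues, fell by 4.86 ± 0.32 on the log2 scale.

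Genes induced by low oxygen were higher with the tumor. Cells short of oxygen stabilise the factor HIF-1, encoded in part by Hif1a, which binds the core sequence ACGTG in the promoters and enhancers of its targets, among them glycolytic enzymes and the vessel growth factor Vegfa. Of 20 tested genes of the hypoxia response, 14 were called higher and 0 lower, with a median difference of 1.30. Of 22 tested glycolytic genes, 19 were called higher and 0 lower, with a median of 1.57. Both medians stand beside -0.007 over all tested genes.

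The promoters of 3 glycolytic genes with this core are shown because their genes rose in every tumor library, and each runs 5′ to 3′ on the strand of the gene, from 250 bases before to 50 after the start. The sequences are from RefSeq on GRCm38.p6, and capitals mark ACGTG read on either strand.
Ldha (chr7:46845554-46845853, plus strand): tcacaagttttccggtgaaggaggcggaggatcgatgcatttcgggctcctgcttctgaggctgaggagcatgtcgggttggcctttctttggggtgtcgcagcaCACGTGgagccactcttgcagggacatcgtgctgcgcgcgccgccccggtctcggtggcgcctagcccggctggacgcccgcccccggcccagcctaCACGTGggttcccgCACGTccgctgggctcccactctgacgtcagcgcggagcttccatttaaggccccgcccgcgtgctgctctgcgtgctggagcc
Pgk1 (chrX:106186850-106187149, plus strand): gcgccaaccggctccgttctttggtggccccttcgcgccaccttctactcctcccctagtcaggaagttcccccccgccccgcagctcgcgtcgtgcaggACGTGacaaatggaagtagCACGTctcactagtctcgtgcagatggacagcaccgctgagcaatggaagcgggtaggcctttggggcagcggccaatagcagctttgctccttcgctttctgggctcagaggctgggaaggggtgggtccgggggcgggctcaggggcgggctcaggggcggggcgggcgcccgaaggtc
Slc16a3 (chr11:120948817-120949116, plus strand): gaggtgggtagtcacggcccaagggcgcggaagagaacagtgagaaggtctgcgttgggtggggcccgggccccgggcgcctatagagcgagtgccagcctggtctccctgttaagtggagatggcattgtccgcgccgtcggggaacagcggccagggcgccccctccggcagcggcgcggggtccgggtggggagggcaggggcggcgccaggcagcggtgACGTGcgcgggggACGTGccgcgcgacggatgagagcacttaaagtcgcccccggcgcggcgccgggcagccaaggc
Counted from the start, the matches begin at -145, -48 and -34 in Ldha, at -150 and -131 in Pgk1, and at -27 and -14 in Slc16a3. The start is that of the RefSeq promoter. It lay 4329 bases from the gene start given with the counts for Ldha, 0 for Pgk1 and 587 for Slc16a3. In Ldha, CACGTG holds the core on both strands and is also the E-box, a site of other factors. The core was present in 12 of 21 glycolytic promoters (57.1%, 95% Wilson interval 36.5 to 75.5%) and in 10 of 17 hypoxia promoters (58.8%, 36.0 to 78.4%), against 2748 of 10825 promoters of tested genes with an entry (25.4%), and 65.2% of the tested genes have one. A match is a description of these letters and not evidence of binding, and the Vegfa window nearest to its gene's start held none.

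Ldha, which turns pyruvate into lactate, had 1447, 1598 and 1592 CPM with the tumor, against 470.2, 474 and 413 CPM without it, a difference of 1.77 ± 0.09. Pgk1, the phosphoglycerate kinase of glycolysis, had 264, 291 and 286 CPM with the tumor, against 36.6, 43.6 and 33.8 CPM without it, a difference of 2.88 ± 0.13. Slc16a3, the lactate exporter MCT4, had 457, 478 and 500.2 CPM with the tumor, against 67.2, 67.5 and 42.3 CPM without it, a difference of 3.02 ± 0.16. In these 3 genes the spread within a group was small beside the gap between groups. Slc2a1, the glucose transporter GLUT1, had 133, 166 and 158 CPM with the tumor, against 17.1, 24.5 and 8.64 CPM without it, a difference of 3.19 ± 0.28. Of 18 transporters of sugar, lactate and amino acids, 12 were higher and 4 lower. Hexokinase Hk2 rose by 1.98 ± 0.10 and the phosphoglycerate mutase Pgam1 by 2.63 ± 0.12. Pfkfb3, whose product makes an activator of phosphofructokinase, did not follow, with a difference of -0.41 ± 0.18 that was not called, and without no-tumor library 1 it was called lower at -0.62. Glycolytic genes have processed pseudogenes of near-identical sequence, and how their reads were divided is not given in the sources used here.

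Vegfa had 65.6, 70.1 and 52.2 CPM with the tumor, against 1.34, 3.00 and 1.55 CPM without it, a difference of 5.0 ± 0.23. No no-tumor library came near the lowest tumor library. Hif1a itself had 240.3, 271 and 257 CPM with the tumor, against 99.8, 89.8 and 93.3 CPM without it, a difference of 1.44 ± 0.11. Bnip3, a mitophagy receptor and HIF-1 target, rose by 2.69 ± 0.17, and the prolyl hydroxylase of collagen P4ha1 by 1.52 ± 0.12. Epas1, which encodes HIF-2 alpha, did not overlap between groups but was not called, with a difference of 0.99 ± 0.42, but was called without no-tumor library 1 at 1.28. Its partner Arnt had 65.3 ± 0.678 CPM with the tumor and 67.3 ± 1.92 CPM without it, and was not called.

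**Figure D2:**
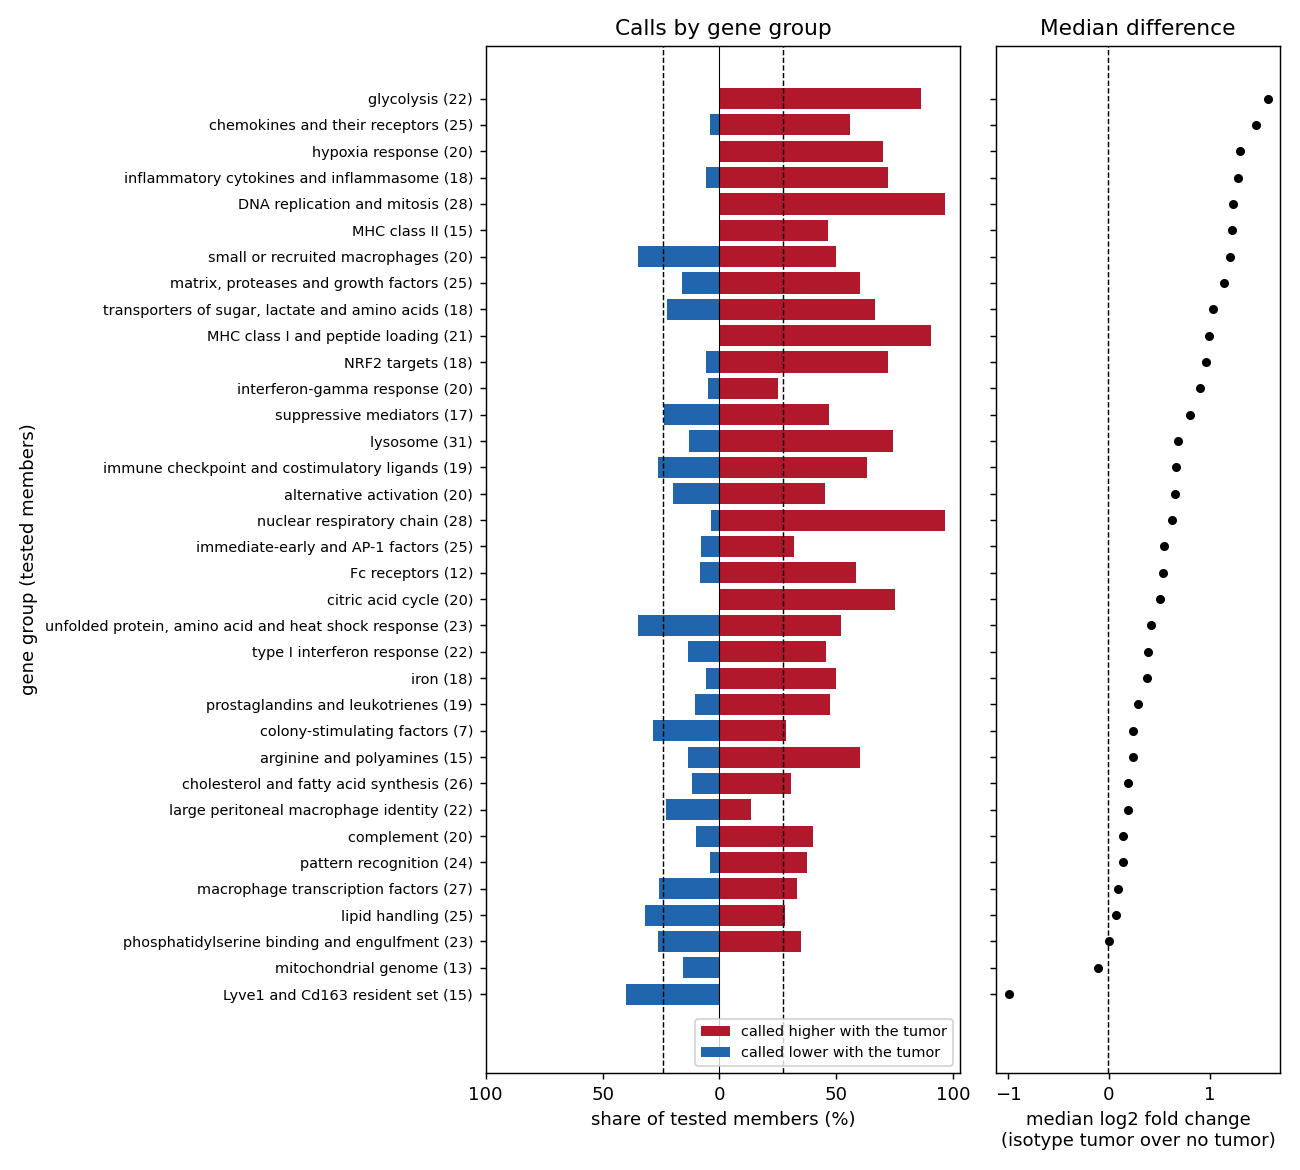
Share of the tested members of 35 gene groups called higher (bars to the right) or lower (bars to the left) with the tumor, in percent, and beside it the median log2 fold change of each group. Dashed lines mark the shares over all 16609 tested genes, 27.3% higher and 24.1% lower, and the median of all tested genes, -0.007.

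Nuclear genes of the respiratory chain rose as well, by smaller steps. All 28 tested nuclear genes of the respiratory chain were called, 27 higher and 1 lower, with a median of 0.63. Uqcrq, a subunit of complex III, averaged 87.4 ± 2.01 CPM with the tumor and 40.9 ± 2.75 CPM without it, and Sdhd, a membrane anchor of complex II, rose by 0.79 ± 0.07. The 1 member that was lower was Ndufa4, a subunit of cytochrome oxidase, which fell by 1.49 ± 0.14 on the log2 scale. Of 13 genes on the mitochondrial genome, 0 were called higher (beside 27.3% of all tested genes) and 2 lower (15.4%, beside 24.1%), with a median of -0.10. Without no-tumor library 2, 5 were lower. Of 20 genes of the citric acid cycle and its exits, 15 were higher and 0 lower. Acly, which turns exported citrate into acetyl-CoA, had 4776, 4240.1 and 4681 CPM with the tumor, against 1288, 1119.9 and 948 CPM without it, a difference of 2.03 ± 0.17. Acod1, which makes itaconate, had 155, 185 and 172 CPM with the tumor, against 2.80, 152 and 32.3 CPM without it. Its no-tumor level rested on library 2, and the difference was 1.46 ± 0.83 and not called, but 3.28 and called without that library.

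Arginine metabolism showed both competing enzymes. Arg1 (ENSMUSG00000019987, chr10:24915221-24927484), which splits arginine into ornithine and urea, had 8258, 8864 and 8586 CPM with the tumor, against 211, 210.0 and 177 CPM without it, a difference of 5.42 ± 0.42. Nos2, which turns arginine into nitric oxide, had 49.8, 78.1 and 48.1 CPM with the tumor, against 0.0374, 2.76 and 0.302 CPM without it, a difference of 5.85 ± 0.68. Both were high in every tumor library, while the Nos2 level without a tumor came mostly from no-tumor library 2, and the difference was 8.41 without it and 5.26 without library 1. Slc7a2, an arginine importer of macrophages, had 2528, 2694 and 2516 CPM with the tumor, against 277, 299 and 298 CPM without it, a difference of 3.14 ± 0.19. Ass1, which rebuilds arginine from citrulline, rose by 3.00 ± 0.53, and Odc1, the first enzyme of polyamine synthesis, by 1.51 ± 0.10. In the whole group of 15, 9 were higher and 2 lower, with a median of 0.23, and the 2 lower ones were Slc7a1, another arginine importer, and Amd1 of polyamine synthesis, at -0.34 and -0.48. The Slc7a1 call was lost without isotype tumor library 1 or 3 (-0.30 and -0.33) or no-tumor library 2 (-0.28).

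The signs of alternative activation went both ways. Of 20 tested genes of that group, 9 were higher and 4 lower, with a median of 0.65. Beside Chil3 and Arg1, Tgm2, a transglutaminase, had 1883, 2283 and 2097 CPM with the tumor, against 46.6, 178 and 32.0 CPM without it, a difference of 4.61 ± 0.58, or 5.73 without no-tumor library 2. Il4ra, the receptor chain for IL-4 and IL-13, rose by 1.80 ± 0.12. Retnla, the secreted protein RELM alpha and a textbook marker of the same program, fell: it had 29.6, 41.4 and 21.6 CPM with the tumor, against 246, 313 and 545 CPM without it, a difference of -3.57 ± 0.33. Irf4, a factor of that program, fell by 1.71 ± 0.19 on the log2 scale. Chil3 shares near-identical sequence with Chil4, so their reads are uncertain.

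Antigen presentation was higher with the tumor in class I and, with more spread, in class II. Of 21 class I and peptide-loading genes, 19 were higher and 0 lower, with a median of 0.99. B2m, the invariant light chain, had 3529, 3465 and 3789 CPM with the tumor, against 1577, 2079 and 1515 CPM without it, a difference of 1.06 ± 0.12. H2-K1, a heavy chain that shares sequence with H2-D1, had 5579, 4957 and 6104 CPM with the tumor, against 2205, 3114 and 1909 CPM without it, a difference of 1.2 ± 0.16. No-tumor library 2 was the highest of its group in both, and still below every tumor library. Of 15 class II genes, 7 were higher and 0 lower, with a median of 1.22. H2-Aa, a class II alpha chain, had 2489, 2491 and 3029.9 CPM with the tumor, against 247, 1001 and 150.2 CPM without it, a difference of 2.52 ± 0.47. Cd74, the chaperone of class II, had 5274, 5209 and 6340.1 CPM with the tumor, against 659, 2365 and 395 CPM without it, a difference of 2.30 ± 0.43. Without no-tumor library 2 these differences were 3.75 and 3.41. Ciita, the master activator of class II genes, had 127, 169 and 149 CPM with the tumor, against 18.6, 135 and 10.5 CPM without it, and no-tumor library 2 lay inside the tumor range. Ciita was not called, at 1.44 ± 0.60, but was called at 3.35 without that library.

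The interferon genes disagreed widely among the no-tumor libraries. Interferon-gamma from T and NK cells acts on macrophages and induces guanylate-binding proteins and immunity-related GTPases. Gbp2, a guanylate-binding protein, had 857, 859 and 938 CPM with the tumor, against 68.2, 510.4 and 69.6 CPM without it, a difference of 2.03 ± 0.64. Iigp1, an immunity-related GTPase, had 420.1, 517 and 432 CPM with the tumor, against 9.0, 479.8 and 30.0 CPM without it, a difference of 1.40 ± 1.11 that was not called. In both genes no-tumor library 2 lay much nearer to the tumor libraries than the other no-tumor libraries did. Of 20 tested genes of this response, 5 were called higher (25.0%, beside 27.3% of all tested genes) and 1 lower (5.0%, beside 24.1%), with a median of 0.91. Without no-tumor library 2, 16 were higher and 1 lower, with a median of 2.60. Without each of the other 5 libraries in turn, 1 to 3 were higher. The Gbp2 call was lost without no-tumor library 1 (1.59) or 3 (1.61), and without no-tumor library 2 the differences were 3.68 for Gbp2 and 4.55 for Iigp1, both called. Of 22 genes of the type I interferon response, 10 were higher and 3 lower, against 15 and 1 without no-tumor library 2, and 5 or 6 higher without isotype tumor library 1 or 3 or no-tumor library 1 or 3. In no-tumor library 2 the T cell and NK cell markers summed to 8.53 and 2.80 CPM, inside the range of the other no-tumor libraries.

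The Gbp2 promoter is shown for the sequence that interferon-regulated factors read, the interferon-stimulated response element, searched as AAANNGAAA on either strand and marked in capitals. It runs 5′ to 3′ in the direction of the gene, from RefSeq on GRCm38.p6.
Gbp2 (chr3:142620413-142620712, plus strand): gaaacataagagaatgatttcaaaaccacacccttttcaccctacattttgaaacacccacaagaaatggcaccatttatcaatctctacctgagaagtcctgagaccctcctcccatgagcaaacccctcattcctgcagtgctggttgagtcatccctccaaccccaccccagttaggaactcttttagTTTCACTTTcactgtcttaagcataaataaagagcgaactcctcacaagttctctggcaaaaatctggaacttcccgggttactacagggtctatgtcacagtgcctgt
Its single match, on the opposite strand, begins at -59 from the start of the RefSeq promoter, which lay 61 bases from the gene start given with the counts. The same letters were present in 4 of 18 class I promoters (22.2%, 95% Wilson interval 9.0 to 45.2%), against 892 of 10825 promoters of tested genes (8.24%).

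**Figure D3:**
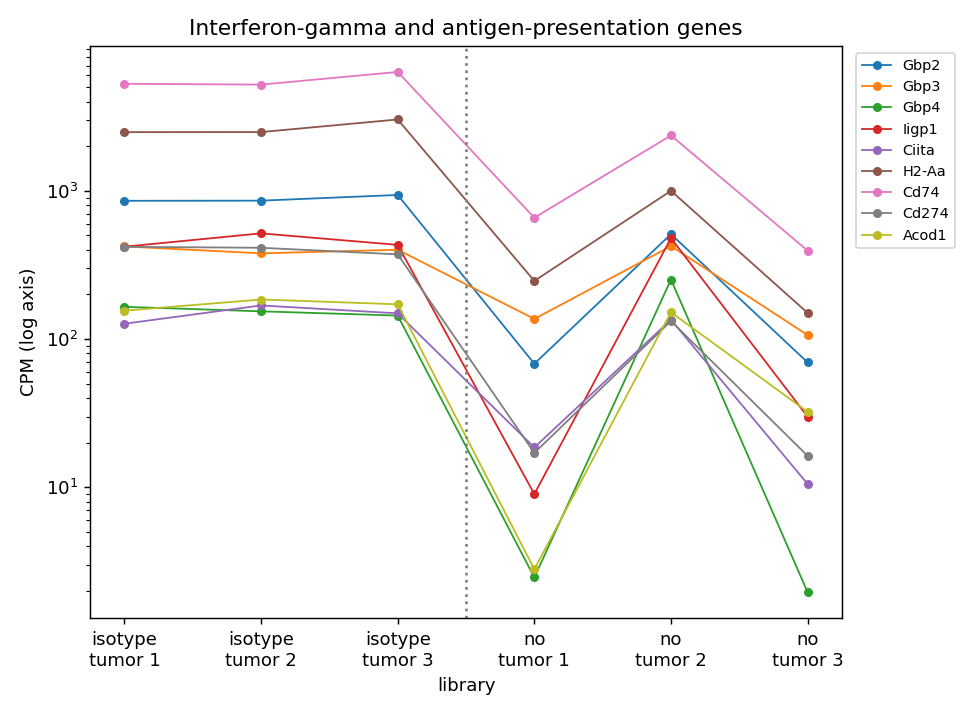
CPM of 9 interferon-gamma and antigen-presentation genes on a logarithmic axis, by library, with the 3 isotype tumor libraries left of the 3 no-tumor libraries and a line for each gene. The tumor libraries lie level, and no-tumor library 2 stands above no-tumor libraries 1 and 3 for every gene shown.

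Ligands that restrain or aid T cells changed in both directions. Of 19 tested ligands and receptors of this kind, 12 were higher and 5 lower. Cd274, which encodes PD-L1, had 419, 413 and 373 CPM with the tumor, against 17.1, 132 and 16.3 CPM without it, a difference of 2.86 ± 0.65. Every tumor library lay above no-tumor library 2, which stood far above the other no-tumor libraries, and without it the difference was 4.59. Pdcd1lg2, which encodes PD-L2, averaged 5.02 ± 1.46 CPM against 0.565 ± 0.364 CPM, a difference of 3.13 ± 0.66. Havcr2, which encodes TIM-3, a relative of Tim-4, had 3.95, 8.01 and 7.47 CPM with the tumor, against 0.261, 0.316 and 0.189 CPM without it, a difference of 4.65 ± 0.46. Nectin2, a ligand of the T cell receptor TIGIT, rose by 2.52 ± 0.19, Lgals9, a ligand of TIM-3, by 0.79 ± 0.07, and Cd47, the signal against engulfment, by 0.57 ± 0.06. Cd86, a costimulatory ligand of CD28, had 35.5, 35.4 and 37.9 CPM with the tumor, against 56.0, 91.7 and 103 CPM without it, a difference of -1.2 ± 0.24. Icosl, the ligand of the costimulator ICOS, fell by 1.47 ± 0.18, and Cd40, by which helper T cells license macrophages, differed by -1.03 ± 0.15. The other 2 lower members were Cd80, the second CD28 ligand, and Vsir, which encodes VISTA.

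Adenosine, which dampens T cells, is made from ATP by the products of Entpd1 and Nt5e. Nt5e, which encodes CD73, had 331, 309 and 348 CPM with the tumor, against 177, 99.4 and 105 CPM without it, a difference of 1.37 ± 0.43, and its call was lost without no-tumor library 2 or 3, at 1.23 and 1.25. Entpd1, which encodes CD39, rose by 0.74 ± 0.11, and Adora2b, an adenosine receptor, by 1.96 ± 0.16. Of 17 suppressive mediators tested, 8 were higher (47.1%, beside 27.3% of all tested genes) and 4 lower (23.5%, beside 24.1%). Il10 averaged 0.535 ± 0.235 CPM with the tumor and 1.35 ± 1.11 CPM without it, and was not called, but was called lower without no-tumor library 1 at -1.79. Tgfb1 was called lower by a small step of -0.25 ± 0.08, a call that was lost without isotype tumor library 1 (-0.23) or no-tumor library 3 (-0.19). Il10ra, a chain of the IL-10 receptor, fell by 0.86 ± 0.15.

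Lysosomal genes were higher as a group. Of 31 tested members, 23 were higher and 4 lower, with a median of 0.69. Ctsd, the aspartic protease cathepsin D, had 12161, 12279 and 13397 CPM with the tumor, against 3276, 2423 and 2542 CPM without it, a difference of 2.20 ± 0.13. Ctsl, a cysteine protease, had 902, 983 and 955 CPM with the tumor, against 194, 170.1 and 214 CPM without it, a difference of 2.30 ± 0.09. Both were high in all 3 tumor libraries, with narrow spread. Psap, the precursor of the saposins, rose by 1.30 ± 0.10. Lipa, the acid lipase that frees cholesterol from engulfed lipoprotein, averaged 271 ± 44.2 CPM against 273 ± 29.0 CPM, and was not called.

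Lipid-handling genes changed in both directions. Apoe (ENSMUSG00000002985, chr7:19696109-19699188), the apolipoprotein that macrophages secrete to carry cholesterol away, had 963, 1323 and 1012 CPM with the tumor, against 15525, 20939.7 and 33934 CPM without it, a difference of -4.42 ± 0.33. Lpl, the lipoprotein lipase, had 56.6, 69.9 and 58.7 CPM with the tumor, against 648, 467 and 638 CPM without it, a difference of -3.24 ± 0.19. Cd36, a scavenger receptor for lipids and dying cells, had 41.7, 81.7 and 30.0 CPM with the tumor, against 523, 586 and 667 CPM without it, a difference of -3.53 ± 0.34. In these 3 genes every no-tumor library lay far above every tumor library, and Apoe varied more than 2-fold among the no-tumor libraries, from library 1 to library 3. Olr1, the receptor LOX-1 for oxidised lipoprotein, rose instead, with 123, 183 and 171 CPM with the tumor, against 9.60, 10.5 and 10.5 CPM without it, a difference of 3.96 ± 0.19. Hilpda, a lipid droplet protein induced by low oxygen, rose by 3.73 ± 0.20. Over the 25 tested genes, 7 were higher and 8 lower, 28.0% and 32.0% beside 27.3% and 24.1% of all tested genes, with a median of 0.07. In cholesterol and fatty acid synthesis, 8 of 26 were higher (30.8%) and 3 lower (11.5%), and 1 lower without isotype tumor library 2 or no-tumor library 1. Scd2, a desaturase, rose by 2.19 ± 0.32, while Fasn, the fatty acid synthase, had 61.4, 65.5 and 65.9 CPM with the tumor, against 89.4, 58.1 and 46.4 CPM without it, and was not called.

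Most of the genes that define large peritoneal macrophages were not called, and the shares called higher (13.6%) and lower (22.7%) lay under those over all tested genes (27.3% and 24.1%). Yet in 14 of the 22 tested the groups did not overlap, beside 57.5% of all tested genes. The spread was estimated over all 18 libraries, the Tim-4low ones included, so an uncalled gene is not shown to be unchanged. Gata6, the lineage factor of large peritoneal macrophages, had 212, 169 and 207 CPM with the tumor, against 202, 129.6 and 129 CPM without it. The groups overlapped and the difference of 0.35 ± 0.44 was not called. Icam2, a surface marker of these cells, had 392 ± 45.8 CPM with the tumor and 461 ± 34.6 CPM without it, and was not called either. Adgre1 rose by 0.94 ± 0.33 at an adjusted p of 0.024, a call that was lost without isotype tumor library 1 or 3 or no-tumor library 2 or 3, at 0.90, 0.93, 0.91 and 0.87. Cxcl13, the chemokine of these cells for B cells, had 106, 68.1 and 82.2 CPM with the tumor, against 1062, 690.5 and 962 CPM without it, a difference of -3.40 ± 0.46. Tgfb2 had 53.9, 38.1 and 53.0 CPM with the tumor, against 552, 473 and 507 CPM without it, a difference of -3.40 ± 0.56. Prg4, a lubricating glycoprotein of the cavity, had 3919, 2794 and 3478 CPM with the tumor, against 10289, 7778 and 8501 CPM without it, a difference of -1.38 ± 0.44, and its call was lost without isotype tumor library 2, at -1.27. Of the 22 tested genes of this identity, 3 were higher and 5 lower, with 14 not called, and 2 higher and 3 lower without no-tumor library 3. Without isotype tumor library 2, 3 were lower. The 5 lower members were Cxcl13, Tgfb2, Prg4, the ficolin Fcna at -0.99 ± 0.31 and the inflammasome sensor Naip1 at -0.42 ± 0.17. The Fcna call was lost without no-tumor library 3 (-0.73), and the Naip1 call without any one of isotype tumor libraries 1, 2 and 3 or no-tumor libraries 1 and 3, at -0.47 to -0.26.

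A set of genes shared by perivascular and cavity-resident macrophages fell in part. Of 15 tested members, 0 were higher and 6 lower, with a median of -0.99, and 10 were lower without isotype tumor library 2. Lyve1, a hyaluronan receptor, had 85.8, 243 and 68.1 CPM with the tumor, against 93.2, 198 and 334 CPM without it. Cd163, the haemoglobin scavenger receptor, had 88.3, 226 and 62.5 CPM with the tumor, against 75.9, 220.3 and 356 CPM without it. Both groups spread widely and overlapped, with isotype tumor library 2 high and no-tumor library 1 low in both genes. Neither was called, at -0.66 ± 0.52 and -0.79 ± 0.52, and without isotype tumor library 2 both were called, at -1.45 and -1.54. Cd163 was called without no-tumor library 1 too, at -1.21. Igfbp4, a binder of insulin-like growth factors, fell without overlap, with 11.2, 18.4 and 15.3 CPM with the tumor, against 97.3, 90.9 and 127 CPM without it, a difference of -2.81 ± 0.24. Mrc1, the mannose receptor, had 125, 286 and 98.9 CPM with the tumor, against 79.9, 164 and 285 CPM without it, and was not called.

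Genes of small or monocyte-derived peritoneal macrophages were not moved one way. Of 20 tested, 10 were higher and 7 lower. Ccr2, the receptor by which monocytes leave the marrow, had 45.0, 55.8 and 123 CPM with the tumor, against 73.3, 28.5 and 38.1 CPM without it, and was not called. It was highest in the library of each group that held the most RNA of other cells, isotype tumor library 3 and no-tumor library 1, and the part of those cells was not tested. Ccr2 was called without no-tumor library 1 at 1.15 and without isotype tumor library 1 at 0.94. Vcan, a proteoglycan of monocytes, rose by 2.99 ± 0.39, or 3.60 without no-tumor library 1. Lyz2, the macrophage lysozyme, fell: it had 7562, 7085 and 7586 CPM with the tumor, against 32794, 26510.0 and 35851 CPM without it, a difference of -2.10 ± 0.17. Its near copy Lyz1 fell by 3.76 ± 0.30, and reads of the pair are uncertain. Fn1, fibronectin, averaged 28129 ± 481 CPM with the tumor and 49099.7 ± 9164 CPM without it, and fell by 0.80 ± 0.17.

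Receptors for dying cells were called in both directions, at a median of 0.00. Of 23 tested genes of phosphatidylserine binding and engulfment, 8 were higher (34.8%, beside 27.3% of all tested genes) and 6 lower (26.1%, beside 24.1%). Axl, a receptor kinase for phosphatidylserine bridged by Gas6, had 195, 198 and 205 CPM with the tumor, against 70.7, 112 and 96.2 CPM without it, a difference of 1.10 ± 0.14. Its relative Mertk averaged 177 ± 16.9 CPM with the tumor and 198 ± 38.9 CPM without it, and was not called. Cd300lf, a receptor for phosphatidylserine and ceramide, had 151, 154 and 177 CPM with the tumor, against 8.26, 19.6 and 6.68 CPM without it, a difference of 3.81 ± 0.31, or 4.43 without no-tumor library 2. Anxa1, a phosphatidylserine-binding annexin, rose by 1.48 ± 0.12 and the integrin chain Itgav by 1.00 ± 0.09. Of 20 complement genes, 8 were higher (40.0%, beside 27.3%) and 2 lower (10.0%, beside 24.1%), with 5 higher without isotype tumor library 3 or no-tumor library 3. Of 12 genes of Fc receptors and their signalling, 7 were higher and 1 lower, the one being Fcgrt, the neonatal Fc receptor, which fell by 0.96 ± 0.13.

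Chemokines and inflammatory genes rose in many members. Of 25 chemokines and receptors, 14 were higher and 1 lower, with a median of 1.45, and the one that fell was Cxcl13. The chemokine Cxcl12, given above among the largest decreases, is not a member of this group. Ccl6, a macrophage chemokine of rodents, had 5937, 7099 and 7005 CPM with the tumor, against 1132, 1285 and 1546 CPM without it, a difference of 2.34 ± 0.11. Of 18 cytokine and inflammasome genes, 13 were higher and 1 lower. Il1b, the secreted interleukin-1 beta, had 24.7, 25.8 and 111 CPM with the tumor, against 2.05, 1.07 and 3.55 CPM without it, a difference of 4.59 ± 0.80. Isotype tumor library 3, which held most RNA of neutrophils, gave its highest level, and without it the difference was 3.49. Il1a, its relative, was not highest there, with 60.0, 53.6 and 34.8 CPM with the tumor, against 6.13, 7.97 and 11.9 CPM without it, a difference of 2.51 ± 0.29. Tnf had 4.76, 5.47 and 4.04 CPM with the tumor, against 1.61, 8.17 and 8.90 CPM without it, and was not called, but was called lower without no-tumor library 1 at -0.85. Ptgs2, the inducible cyclooxygenase, had 19.99, 13.5 and 13.9 CPM with the tumor, against 0.523, 1.18 and 2.08 CPM without it, a difference of 3.64 ± 0.42. In its group of 19 genes of prostaglandins and leukotrienes, 9 were higher and 2 lower, the 2 being Hpgd, which inactivates prostaglandins, and the receptor Ptger4, whose call at -1.02 was lost without isotype tumor library 2 (-0.88) or no-tumor library 3 (-0.78). Of 24 genes of pattern recognition, 9 were higher (37.5%, beside 27.3% of all tested genes) and 1 lower (4.17%, beside 24.1%), or 3 lower without no-tumor library 1. Tlr4, the lipopolysaccharide receptor, rose by 1.05 ± 0.13.

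Genes of matrix turnover and growth factors were mostly higher. Of 25 tested, 15 were higher (60.0%, beside 27.3% of all tested genes) and 4 lower (16.0%, beside 24.1%), with a median of 1.14. Their summed level went the other way, with 36124, 35888.5 and 36993 CPM with the tumor, against 66645, 49402 and 52031 CPM without it. Mmp19, a matrix metalloproteinase, had 128, 145 and 145 CPM with the tumor, against 23.3, 25.4 and 21.7 CPM without it, a difference of 2.57 ± 0.13. Timp2, an inhibitor of such proteinases, fell, with 715, 785 and 728 CPM with the tumor, against 1548, 1576 and 1826 CPM without it, a difference of -1.15 ± 0.09. The groups were separate in both genes.

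Of 18 genes of iron handling, 9 were higher and 1 lower, or 3 lower without no-tumor library 1. Ftl1 and Fth1, the chains of ferritin, rose by 1.11 ± 0.10 and 1.21 ± 0.13. Hmox1, which opens haem and frees its iron, had 581, 835 and 473 CPM with the tumor, against 109.8, 169.6 and 205 CPM without it, a difference of 1.96 ± 0.27. Of 18 targets of the antioxidant factor NRF2, 13 were higher and 1 lower, with a median of 0.96. Several of them are enzymes of the pentose phosphate pathway, and Pgd, one of these, had 478, 521 and 512 CPM with the tumor, against 184, 188 and 187 CPM without it, a difference of 1.44 ± 0.09. Gclm, which limits glutathione synthesis, rose by 0.99 ± 0.08. Nfe2l2, which encodes NRF2, averaged 116 ± 6.10 CPM with the tumor and 119 ± 16.1 CPM without it. The 1 lower gene of iron handling was Tfrc, the transferrin receptor, which averaged 9.48 ± 0.731 CPM with the tumor and 25.6 ± 14.6 CPM without it, and fell by 1.43 ± 0.31. The 1 lower NRF2 target was the catalase gene Cat, which fell by 0.48 ± 0.09.

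Genes of DNA replication and mitosis were higher in the tumor libraries. Of 28 tested, 27 were higher and 0 lower, with a median of 1.23. Rrm2, a subunit of the reductase that makes deoxynucleotides, had 56.5, 52.0 and 44.9 CPM with the tumor, against 13.9, 8.80 and 4.94 CPM without it, a difference of 2.47 ± 0.25. Mki67, the proliferation antigen, had 198, 186 and 146 CPM with the tumor, against 142, 54.4 and 51.3 CPM without it, a difference of 1.10 ± 0.31. No-tumor library 1 was the highest of its group in both, and without it the Mki67 difference was 1.73. Mcm3, a part of the replicative helicase, rose by 1.18 ± 0.10 and Pcna by 0.72 ± 0.08.

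Of 7 colony-stimulating factors and receptors, 2 were higher and 2 lower, 28.6% each, beside 27.3% and 24.1% of all tested genes. Csf2rb, the signalling chain shared by receptors for GM-CSF, IL-3 and IL-5, had 739, 755 and 793 CPM with the tumor, against 247, 225 and 196 CPM without it, a difference of 1.78 ± 0.12. Csf1r, the receptor on which macrophages depend, fell by 0.50 ± 0.10. Of 27 macrophage transcription factors, 9 were higher (33.3%, beside 27.3% of all tested genes) and 7 lower (25.9%, beside 24.1%), with a median of 0.09. Bhlhe40, a repressor also needed by cycling resident macrophages, had 839, 800.2 and 761 CPM with the tumor, against 263, 245 and 261 CPM without it, a difference of 1.64 ± 0.11.

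Of 23 genes of the unfolded protein, amino acid and heat shock responses, 12 were higher and 8 lower. Hspa5, the chaperone BiP of the endoplasmic reticulum, rose by 0.94 ± 0.12, while Atf4, the factor of the amino acid response, fell by 1.14 ± 0.15. Hspa1b, an inducible chaperone whose sequence nearly equals that of Hspa1a, had 54.2, 70.8 and 49.8 CPM with the tumor, against 507, 1299 and 1316 CPM without it, a difference of -4.16 ± 0.43. Nr1d1, the clock repressor REV-ERB alpha, had 4.83, 2.25 and 2.66 CPM with the tumor, against 9.23, 96.3 and 114 CPM without it, a difference of -4.50 ± 0.84. Dbp, an output factor of the clock, had 0.307, 0.543 and 0.385 CPM with the tumor, against 1.64, 18.9 and 25.5 CPM without it, a difference of -5.20 ± 0.77. In all 3 genes no-tumor library 1 was the lowest of its group, though above every tumor library. Nr1d1 and Dbp are among the 15 largest decreases, and the clock genes were gathered as a group after their values were seen. Of 15, 3 were higher and 9 lower. Per3, a clock repressor, fell by 3.38 ± 0.38 and Tef, an output factor, differed by -2.65 ± 0.32, while the repressors Cry1 and Nfil3 rose by 2.06 ± 0.39 and 2.44 ± 0.24. Arntl, the activator BMAL1, averaged 16.0 ± 2.36 CPM with the tumor and 21.6 ± 5.66 CPM without it, and its call at -0.43 was lost without isotype tumor library 1 or 3 or no-tumor library 1 or 3, at -0.41, -0.35, -0.25 and -0.41. Without no-tumor library 1 the Cry1 difference was 2.83. The hour of collection is not in the labels, and its part in these values was not tested.

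Immediate-early genes rise within minutes of cell handling or stimulation. Of these, 8 of 25 were called higher with the tumor (32.0%, beside 27.3% of all tested genes) and 2 lower (8.0%, beside 24.1%), and 14 higher without no-tumor library 3. Fos, a partner in the AP-1 factor, had 901, 671 and 854 CPM with the tumor, against 204, 261 and 552 CPM without it, a difference of 1.25 ± 0.33. No-tumor library 3 stood closest to the tumor libraries. Junb, its partner, had 1027, 932 and 1037 CPM with the tumor, against 609, 641 and 967 CPM without it, and was called only without no-tumor library 3, at 0.68.

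Markers of other cells of the cavity were measured in every library, and some sums separated the groups while others followed single libraries. The sums take in every marker present in the data, also those with too few counts to be tested. The calls cover the tested markers alone. The 10 T cell markers tested summed to 21.4, 15.4 and 109 CPM in the isotype tumor libraries, against 31.8, 8.53 and 7.36 CPM in the no-tumor libraries. The 8 NK cell markers, 7 of them tested, summed to 11.4, 8.22 and 78.0 CPM with the tumor, against 4.18, 2.80 and 0.906 CPM without it. The 10 B cell markers summed to 28.4, 21.4 and 53.1 CPM with the tumor, against 349, 125 and 148 CPM without it, and all 10 were called lower. Isotype tumor library 3 led the T and NK cell sums and no-tumor library 1 the B cell sum. Without no-tumor library 1, 6 B cell, 0 plasma cell and 1 mast cell markers were called lower and 7 dendritic cell markers higher, and without isotype tumor library 1 or 2 the mast cell count was 1 lower. Without no-tumor library 3, 2 dendritic cell markers were called higher. Without isotype tumor library 3, 1 T cell marker was called higher and 1 lower, against 9 and 0 with it, and 2 NK cell markers were higher, against 4 with it. Without no-tumor library 2 or 3, 2 T cell markers were higher. Of 8 tested neutrophil markers, 6 were higher and 1 lower, and all 9 summed to 109, 95.3 and 367 CPM with the tumor, against 264, 215 and 247 CPM without it. The lower one, Csf3r, the receptor for G-CSF, made up most of the no-tumor sums. S100a9, a calcium-binding protein abundant in neutrophils, had 18.6, 19.6 and 104 CPM with the tumor, against 1.16, 0.0395 and 0.264 CPM without it, and Cxcr2, their chemokine receptor, had 9.44, 9.67 and 53.6 CPM with the tumor, against 0.635, 0.118 and 0.226 CPM without it. Without isotype tumor library 3 the differences were 5.26 for S100a9 and 4.83 for Cxcr2. Gzmb, a granzyme of cytotoxic lymphocytes, was 4.75 higher and Ccl22, a chemokine of dendritic cells and macrophages, 4.53 higher without that library, against 6.45 and 6.0 with it. Without no-tumor library 1 the differences were 8.21 for S100a9, 7.08 for Cxcr2, 7.65 for Gzmb and 6.93 for Ccl22. The 6 fibroblast markers, 5 of them tested, summed to 8.48, 15.4 and 41.3 CPM with the tumor, against 0.523, 0.316 and 0.491 CPM without it, and the 6 epithelial markers to 8.75, 11.6 and 16.4 CPM, against 9.19, 7.66 and 6.98 CPM. Of these epithelial markers, Cdh1, which encodes E-cadherin and is also made by alternatively activated macrophages, was most of the sum with the tumor, with 6.71, 10.1 and 12.7 CPM with the tumor, against 0.112, 0.276 and 0.0377 CPM without it. Krt7, a keratin, was most of the sum without it, with 1.07, 0.833 and 1.23 CPM with the tumor, against 6.76, 6.99 and 6.49 CPM without it. Epcam, the defining surface protein of epithelium, had 0.0384, 0.0725 and 0.462 CPM with the tumor, against 1.23, 0.118 and 0.151 CPM without it. Of 6 tested markers of mesothelium, the lining of the cavity, all 6 were called higher, and the 7 in the data summed to 1.69, 1.63 and 6.28 CPM with the tumor, against 0.149, 0.118 and 0.189 CPM without it. Monocyte markers, 5 of 9 called higher and 0 lower, summed to 825, 624 and 889.9 CPM with the tumor, against 376, 303 and 351 CPM without it. Endothelial markers, 2 of 3 called higher and 0 lower, summed to 34.1, 46.8 and 33.8 CPM with the tumor, against 11.1, 4.97 and 4.26 CPM without it. In both, every tumor library lay above every no-tumor library. Markers of red cells and platelets, 4 of 6 called higher and 1 lower, summed to 181, 133 and 129.6 CPM with the tumor, against 512, 432 and 529 CPM without it. Most of that sum was the lower one, Pf4, platelet factor 4, which macrophages also make, with 145, 115 and 116 CPM with the tumor, against 509.7, 426 and 527 CPM without it. Plasma cell markers, 1 of 4 called higher and 3 lower, summed to 15.7, 16.5 and 50.6 CPM with the tumor, against 347, 85.9 and 98.3 CPM without it. Mast cell markers, 1 of 6 tested called higher and 4 lower, summed to 148, 131 and 161 CPM with the tumor, against 159, 61.2 and 48.6 CPM without it. These sums overlapped, with no-tumor library 1 close to the tumor libraries. They did not follow the 4 markers that fell, and the median difference of the 6 was -3.93. Dendritic cell markers, 4 of 9 called higher and 1 lower, summed to 49.4, 46.2 and 99.4 CPM with the tumor, against 71.9, 46.1 and 44.0 CPM without it, and eosinophil markers, 1 of 3 higher and 1 lower, to 3.18, 3.66 and 7.66 CPM, against 9.82, 2.76 and 1.77 CPM. The part of these cells in the differences above was not tested beyond the check that follows.

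**Figure D4:**
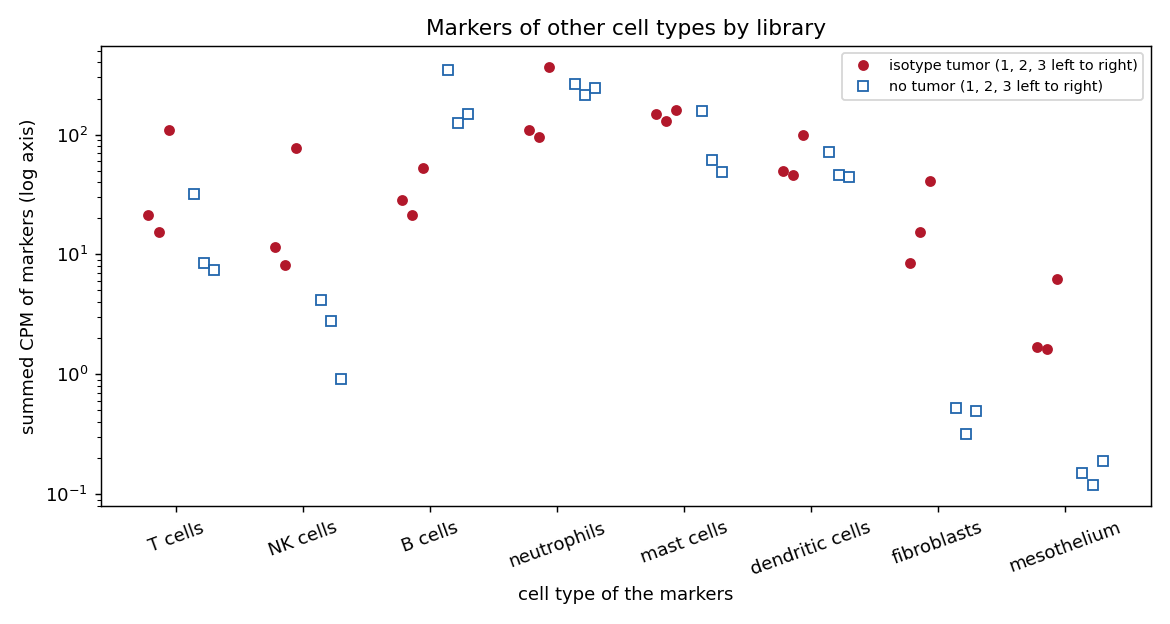
Summed CPM of the markers of 8 other cell types in each library, on a logarithmic axis, with the 3 isotype tumor libraries (filled circles) left of the 3 no-tumor libraries (open squares). Isotype tumor library 3 is highest of its group for T cells, NK cells, neutrophils and fibroblasts, and no-tumor library 1 is highest of all for B cells.

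With isotype tumor library 3 and no-tumor library 1 both left out, a check added after the values were seen, the comparison called 7178 genes, 3858 higher and 3320 lower. Of the 154 genes named here, 140 kept their direction and their call. Chil3 differed by 10.53, Arg1 by 5.46, Vegfa by 4.90, Ctsd by 2.30, Apoe by -4.59 and H2-Aa by 2.11, each called as with all libraries. Calls were lost for Adgre1 (1.05), Fos (0.95), Gbp2 (1.56), Prg4 (-1.28), Ptger4 (-1.04), Slc7a1 (-0.37), Naip1 (-0.26) and Arntl (-0.16), and gained for Ccr2 (0.60), Il10 (-1.69) and Pfkfb3 (-0.60). In a fit of the 6 libraries alone, calls were lost for Gbp2 (2.00), Mki67 (1.08) and Arntl (-0.45), and gained for Epas1 (0.97) and Timd4. With the 2 libraries left out, among the gene groups, 1 gene of the interferon-gamma response, 3 of the type I interferon response and 3 of the immediate-early group were then called higher, and 3 of the large peritoneal macrophage group lower, and 4 T cell, 2 NK cell and 3 mesothelial markers were called higher.

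The tumor comparison was set beside the same comparison in Tim-4low macrophages, in which 4185 genes (25.2%) were called higher and 4088 (24.6%) lower. No library is in both comparisons, but libraries of the same number within a condition deviated together, with correlations of 0.217 to 0.489 in 6 pairs. Pairs of different numbers within a condition reached 0.209. The 2 comparisons are therefore not taken as independent. Of the 8548 genes called in Tim-4high cells, 6284 (73.5%) were also called in the same direction in Tim-4low cells, where they are 76.0% of the calls, and 75 were called in the opposite direction. A test of the difference itself, Tim-4high minus Tim-4low, called 367 genes (2.21%) as more positive in Tim-4high cells and 220 (1.32%) as more negative. With each numbered pair of libraries as a term of the fit, 1858 genes were called, 1093 more positive and 765 more negative. Of the 154 named genes that fit called 53, among them, in the same direction, all 19 called without the term. The largest of the 34 further gaps by size were those of Ffar2 (4.08 ± 0.91), Chil3 (3.00 ± 0.54), Cd163 (2.60 ± 0.34), Ccl22 (2.20 ± 0.44), Spp1 (1.97 ± 0.39) and Hal (-1.74 ± 0.23). The Ffar2 fold in Tim-4high cells rests on almost no reads without a tumor, so the size and rank of its gap are uncertain. Ccl22 levels in Tim-4high cells followed isotype tumor library 3. With no pair term, the count without one library ran between 321 and 889, and it moved by over 1.5 times without isotype Tim-4high 1 (387) or 3 (337), no-tumor Tim-4high 1 (889) or 3 (367), isotype Tim-4low 1 (363) or 2 (321) or no-tumor Tim-4low 3 (329).

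Of the gene groups, lipid handling held 1 gene more positive and 7 more negative in Tim-4high cells among 25 tested, small or recruited macrophages 6 and 1 among 20, and MHC class II 6 and 0 among 15. With the pairs as a term these counts were 3 and 11, 10 and 2, and 8 and 0, and alternative activation held 11 and 1. Other groups were as one-sided in that fit. DNA replication and mitosis held 11 and 0, immediate-early genes 9 and 2, and the citric acid cycle 8 and 0. The mitochondrial genome and pattern recognition held 0 and 6 each. These counts stand beside the larger number of calls of that fit over all tested genes, given above. In Tim-4low cells 1 of the 15 class II genes was called higher with the tumor and 3 lower, beside 25.2% and 24.6% of all tested genes there. H2-Aa had 3136, 3021 and 3243 CPM in Tim-4low cells with the tumor, against 3043, 3360.3 and 4131 CPM without it, so it was already high there without a tumor. The Tim-4low difference was -0.16, and the Tim-4high difference exceeded it by 2.68 ± 0.63 at an adjusted p of 0.028, or by 3.16 ± 0.55 with the pairs as a term. That call was lost without any one of the 6 isotype tumor libraries of either sort, or without no-tumor Tim-4low library 3, with gaps of 2.53 to 2.72, and without no-tumor Tim-4high library 2 the gap was 3.91. Mgl2, a galactose-binding lectin of alternatively activated and dendritic-like cells, had 30.0, 49.1 and 36.2 CPM in Tim-4high cells with the tumor, against 11.6, 4.18 and 4.49 CPM without it, and 38.5, 34.3 and 40.4 CPM in Tim-4low cells with the tumor, against 82.1, 105 and 202 CPM without it. It rose by 2.5 ± 0.51 in Tim-4high cells and was -1.78 in Tim-4low cells, a gap of 4.28 ± 0.69. Without no-tumor Tim-4high library 1 its Tim-4high difference was 3.13 and the gap 4.91. Vdr differed by 2.23 in Tim-4low cells, less than in Tim-4high cells by 3.67 ± 0.48, or by 4.29 without no-tumor Tim-4high library 1.

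Other genes had a more negative tumor difference in Tim-4high cells than in Tim-4low cells. Stab1, a scavenger receptor, had 244, 526 and 199 CPM in Tim-4high cells with the tumor, against 222, 274 and 329 CPM without it, and was not called there. In Tim-4low cells it had 541, 574 and 383 CPM with the tumor, against 91.9, 46.5 and 39.0 CPM without it, a difference of 3.08, and the gap was -2.84 ± 0.52. Fcgr1, the high-affinity receptor for IgG, had 131, 162 and 142 CPM in Tim-4high cells with the tumor, against 38.7, 54.6 and 28.9 CPM without it, a difference of 1.83 ± 0.30, against 3.94 in Tim-4low cells, with a gap of -2.10 ± 0.42. Hgf, hepatocyte growth factor, fell by 3.23 ± 0.47 in Tim-4high cells and was 0.16 in Tim-4low cells, with a gap of -3.39 ± 0.64, or -4.15 without no-tumor Tim-4low library 1. Apoe was lower with the tumor in both, with differences of -4.42 in Tim-4high and -2.87 in Tim-4low cells and a gap of -1.54 ± 0.40, whose call was lost without any one library other than no-tumor Tim-4high 1 and no-tumor Tim-4low 3, with gaps of -1.70 to -1.18. Arg1 differed by 6.21 and Cd274 by 3.36 in Tim-4low cells, and neither gap was called, with or without the pairs as a term.

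**Figure D5:**
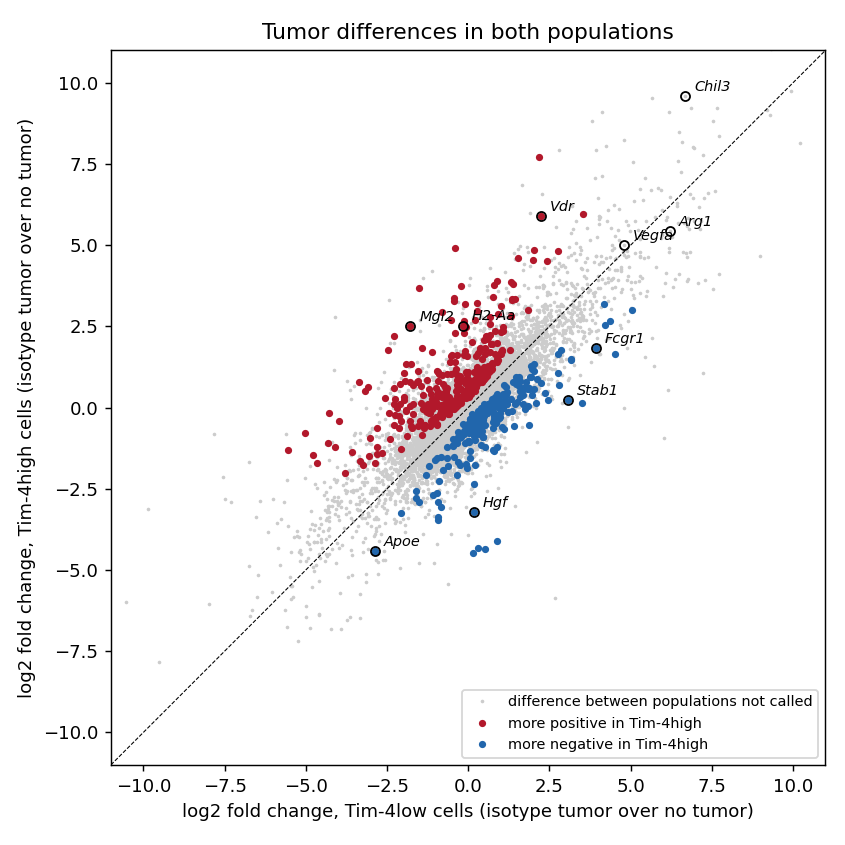
Tumor differences (log2 fold change, isotype tumor over no tumor) of all 16609 tested genes in Tim-4high cells on the vertical axis, against those in Tim-4low cells on the horizontal axis. Filled points are the 367 genes called as more positive and the 220 called as more negative in Tim-4high cells, and named genes are labelled.

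In the Tim-4high libraries from tumor-bearing mice given anti-Tim-4, which take no part in the test, the levels of the same genes were as follows. Arg1 had 9368, 9394 and 8516 CPM and Chil3 11299, 8455 and 3079 CPM. Cd274 had 413, 372 and 302 CPM and H2-Aa 2976, 2549 and 2873 CPM. Apoe had 2274, 2700.4 and 2944 CPM and Timd4 219, 173 and 169 CPM. For all 6 genes these levels lay, on a log scale, nearer to the isotype tumor libraries than to the no-tumor libraries.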

How the data were processed

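Cells were sorted into trizol, and RNA was extracted and sequenced with standard Illumina libraries, per the labels' protocols. The authors deposited estimated counts per gene, which were rounded here to whole numbers before testing. STAR, DESeq2 and the build mm10 are named in the submitters' processing notes, and no source used here names the quantifier or says whether it used strand, so reads of overlapping, antisense and near-identical genes are uncertain. The table pairs Ensembl identifiers with symbols, and positions are from GENCODE on GRCm38.

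Genes were tested with edgeR 4.0.16 (quasi-likelihood, TMM factors, filterByExpr) in R 4.3.3, in 1 fit of all 18 libraries in 6 groups with 12 residual degrees of freedom. Of 23511 genes, 16609 were tested and 6902 had too few counts. P-values were adjusted by Benjamini-Hochberg over all tested genes, and a gene was called under 0.05. The scripts were tested on simulated data. CPM uses TMM-scaled library totals. RefSeq promoters were matched for 10825 tested genes, 147 of them by an older symbol, and 5784 had no entry.

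Library numbers in the labels did not pair isotype tumor with no-tumor libraries (correlations of deviations -0.167, 0.124 and -0.170). Tim-4high and Tim-4low libraries of the same number and condition correlated at 0.217 to 0.489. Those of different numbers within a condition ran from -0.432 to 0.209. Isotype tumor library 3 and no-tumor library 1 of Tim-4high cells, from different conditions, reached 0.317. These values alone therefore do not settle whether numbered libraries are paired. The groups share no identical library.

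The comparison and the gene groups were chosen with earlier results of these data known. Named genes were the 15 largest changes each way with a mean of at least 10 CPM and no overlap, the 8 largest each way of the difference between sorts, up to 6 called and 2 uncalled members of each group, and key genes of peritoneal and tumor macrophages. Some genes that the rule names are not reported here. Of the 154 genes named, 17 lie outside this rule and were chosen after their values were seen.

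The alternatives were other size factors, no filter, DESeq2 1.42.0, robust estimation, fits of the compared libraries alone, replicate blocks, each library left out, the 250 bases before the start, and, added after seeing the data, isotype tumor library 3 and no-tumor library 1 left out together. Only the 2 groups compared and their Tim-4low counterparts are described in depth.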

Additional observations from a re-analysis of the deposited data

Results flagged for a closer look

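The tumor comparison differed between Tim-4high and Tim-4low cells by a test of the difference itself in 587 genes (edgeR's quasi-likelihood test, adjusted p under 0.05), and 19 named genes are among them. Values are the tumor difference in Tim-4high cells minus that in Tim-4low cells, on the log2 scale. The tumor difference was more positive in Tim-4high cells for Mgl2 (4.28), Vdr (3.67), H2-Aa (2.68), Cd74 (2.44), Axl (1.52), Rrm2 (1.38), Ccl6 (1.31), Adora2b (1.23), Irf4 (1.16), Csf2rb (0.74), Psap (0.58) and Mcm3 (0.55). It was more negative for Hgf (-3.39), Stab1 (-2.84), Fcgr1 (-2.10), Vcan (-2.05), Apoe (-1.54), Lpl (-1.17) and Cd40 (-1.07). Irf4 fell in Tim-4high cells, so its positive value means a smaller fall there than in Tim-4low cells. The Cd74 and Vcan calls were lost without any one of 9 libraries, the 6 isotype tumor libraries of both sorts, no-tumor Tim-4high 1 and no-tumor Tim-4low 2 and 3. Of the 12 libraries left out one at a time, 10 ended the call of Apoe, 9 those of Mcm3 and Psap, 8 that of Rrm2, 7 that of H2-Aa and 4 that of Irf4. The other 11 genes kept their calls without any one library. With numbered pairs of libraries as a term of the fit, all 19 were called in the same direction. Without no-tumor Tim-4high library 2 the Cd74 value was 3.55, and without no-tumor Tim-4high or Tim-4low library 1 the Vcan value was -1.45 or -2.70. Each group has 3 libraries, so no single library was tested as lying apart from its group.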

How the results depend on the processing

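The tumor comparison in Tim-4high cells called between 6309 and 8919 genes under every alternative, and 122 of the 154 named genes kept their direction and call under all of them. With library totals in place of scaled sizes the split was 3467 higher and 5452 lower, and the medians of lipid handling, complement, phosphatidylserine receptors, macrophage factors and pattern recognition changed sign. A replicate block by library number, which does not pair these samples, called 6309 genes (6 libraries alone) or 8668 (all libraries). The test between sorts depended on the setting. It called 587 genes with all libraries, 1040 with DESeq2 (638 more positive, 402 more negative) and 1858 with the replicate block by condition and number (1093 and 765). Without one library its counts ran between 321 and 889, 197 and 587 more positive, 116 and 302 more negative. The cause was not tested.

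Promoter shares over all tested genes in the 250 bases before the start were 21.4% for ACGTG, 7.34% for AAANNGAAA and 4.44% for TGANTCA. No shares are given for the type I interferon, interferon-gamma, matrix, NRF2 and large peritoneal macrophage groups, since under 80% of their genes had an entry.

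Some uncalled differences changed sign between settings, and for Epcam, which had few reads, the range was wide. Fasn was at 0.28 and Lipa at 0.14 with the 2 libraries left out, Fasn at 0.0058 and Lipa at 9.5e-05 with no filter, and Fasn at 0.022 and 0.029 with the block. Without one library the ranges were -3.08 to 0.47 for Epcam, -0.20 to 0.29 for Fasn, -0.15 to 0.092 for Lipa, -0.66 to 0.48 for Mrc1, -0.15 to 0.057 for Nfe2l2 and -0.32 to 0.48 for Stab1.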
